A study of Mus musculus with 4 samples.

Results

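The genes described here are 8 regulators of sterol balance: Srebf1, Srebf2, Scap, Insig1, Insig2, Mylip, Nr1h2 and Nr1h3. They were chosen by name, as the rows carrying these symbols, and all 8 were found among the 54838 named genes of the deposited tables. The data are RNA-seq of Hepa1-6, a mouse hepatocellular carcinoma cell line, compared between control cells and cells in which Setdb1 was knocked down. Setdb1 encodes a histone methyltransferase that lays down a repressive chromatin mark. The control group (2 libraries) carried the shRNA labelled NC and a Setdb1 wild type genotype, and the knockdown group (2 libraries) carried the shRNA labelled Set. The series text calls the cells subclones, and the labels give neither the number of clones nor the time after knockdown. Nothing in the labels says that the libraries of a group came from separate cultures, so p-values reflect how far these libraries differ among themselves, and that spread could be technical.

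SREBP-1 and SREBP-2, the products of Srebf1 and Srebf2, are transcription factors made as precursors in the membrane of the endoplasmic reticulum. When sterols are scarce, the escort protein SCAP carries them to the Golgi apparatus, where proteases release the active fragment, which switches on genes of cholesterol and fatty acid synthesis. When sterols are plentiful, INSIG-1 or INSIG-2 holds SCAP back. The liver X receptors LXRα (Nr1h3) and LXRβ (Nr1h2) sense oxidised sterols and switch on genes of sterol export, Srebf1 and Mylip, whose product IDOL marks lipoprotein receptors for degradation. In liver, this circuit sets cholesterol and fat output, and Insig1 is itself a known target of SREBP.

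The promoter sequences of 3 members are shown because the results turn on Insig1, on the start sites of Insig2 and on Srebf2, which alone among the 8 held the searched SREBP motif TCACCCCA. RefSeq windows on GRCm38 run from 250 bases before to 50 bases after a start site, and all 8 members matched, with 14 windows. Each line gives bases before the start site, and the motifs described after the sequences are in capitals. The Insig2-201 line lies within the Insig2 gene, and exons of its other transcripts, apart from Insig2-202, were not looked for there. The Insig1 and Srebf2 lines stop where the first GENCODE exon begins, ahead of the RefSeq start site from which distances are counted.
Insig1 (chr5:28071162-28071362, + strand): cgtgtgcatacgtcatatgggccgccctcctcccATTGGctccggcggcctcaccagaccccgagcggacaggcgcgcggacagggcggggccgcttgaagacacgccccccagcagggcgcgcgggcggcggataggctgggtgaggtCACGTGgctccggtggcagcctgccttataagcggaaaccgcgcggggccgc
Srebf2 (chr15:82147019-82147180, + strand): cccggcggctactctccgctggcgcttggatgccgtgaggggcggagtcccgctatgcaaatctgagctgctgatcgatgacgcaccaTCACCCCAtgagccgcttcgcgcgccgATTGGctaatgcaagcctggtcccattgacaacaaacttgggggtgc
Insig2-202 start (chr1:121332590-121332839, - strand): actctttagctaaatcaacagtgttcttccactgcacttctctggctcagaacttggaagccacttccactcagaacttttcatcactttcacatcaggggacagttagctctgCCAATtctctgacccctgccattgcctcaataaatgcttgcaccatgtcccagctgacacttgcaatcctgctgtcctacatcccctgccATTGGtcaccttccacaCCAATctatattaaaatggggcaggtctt
Insig2-201 start (chr1:121328025-121328274, - strand): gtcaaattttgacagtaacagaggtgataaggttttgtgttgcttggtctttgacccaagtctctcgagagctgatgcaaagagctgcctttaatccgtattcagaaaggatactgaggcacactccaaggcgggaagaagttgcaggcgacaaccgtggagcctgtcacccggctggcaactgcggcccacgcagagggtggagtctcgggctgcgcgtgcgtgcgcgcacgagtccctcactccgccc

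In Insig1 the CACGTG box, an E-box that SREBPs are known to bind among other factors, began 101 bases before the RefSeq start site, and an ATTGG, the reverse complement of the NF-Y motif CCAAT, lay 216 bases before it. CACGTG occurred in 7.15% of all 32851 windows of this length, and among members in Insig1 and Scap. In Srebf2, TCACCCCA lay 162 bases before the start site, with an ATTGG 135 bases before it. TCACCCCA occurred in 1.56% of all windows and was searched after the promoters had been seen. The Insig2 window at the upstream start site held CCAAT boxes 136, 46 and 29 bases before the start, the middle one reversed, whereas the window of the downstream start held none of the searched motifs. CCAAT was common, with 41.1% of 27025 genes and 5 of the 8 members carrying it, against 14 of 15 matched cholesterol synthesis genes. The longer SREBP motif TCACNCCAC, which overlaps TCACCCCA, was in 1.24% of windows and in no member, and an AGGTCA pair spaced by 4 bases, read by LXR, was in 0.0152% of windows and in no member. All motifs were searched on both strands, and a match is a description of letters, not of binding.

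To set the Srebf2 match beside that of a cholesterol synthesis gene, the stretches around TCACCCCA in Srebf2 and Hmgcs1, the enzyme that makes HMG-CoA, are given with the motif in capitals, and in Hmgcs1 the capitals run on through the longer motif.
Srebf2 (chr15:82147096-82147125, + strand): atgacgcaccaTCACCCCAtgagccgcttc
Hmgcs1 (chr13:119690203-119690233, + strand): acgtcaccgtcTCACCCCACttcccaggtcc
The Hmgcs1 match began 137 bases before its start site. Hmgcs1 is shown for this match and was the single gene with either motif among the 15 cholesterol synthesis genes that had a promoter window. Its counts were fractional in all 4 libraries. Hmgcs1 RNA was lower in the knockdown cells (log2 fold change -0.61, adjusted p = 0.0220 by edgeR's quasi-likelihood test), while Srebf2 did not pass that test. Among the other genes followed below, TCACCCCA was in Gpam and Apoe, and TCACNCCAC in Stard3 and Mlxipl. Of these, Apoe passed (log2 fold change -1.18), and Gpam (-0.21), Stard3 (0.01) and Mlxipl (2.02) did not.

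The libraries held between 19513567 and 19615440 counts each. Setdb1 RNA stood at 51.5 and 58.5 CPM (counts-per-million) in the control libraries and at 10.97 and 8.67 CPM in the knockdown libraries, 17.9% of control (log2 fold change -2.49, SE 0.18, adjusted p = 0.000150). The mitochondrial share of counts was 1.67% to 2.29% in controls and 2.15% and 3.36% in the knockdown libraries, and its part in the results below was not tested. The hepatocyte and fetal liver markers Alb, Afp, Krt8 and Krt18 were abundant, between 429 and 1646 TPM (transcripts-per-million, a level per transcript length), while Ttr and Apoa1 were at 0.58 TPM or less in every library. Of the hepatocyte markers, 1 (Alb) was higher and 2 (Apob and Hnf4a) were lower in the knockdown. Summed levels of 8 macrophage markers were 15.3 to 17.1 TPM in controls and 15.4 to 15.5 TPM in knockdown libraries, mostly Cd14, with Clec4f, Vsig4 and Marco at 0. Within that sum Csf1r was at 1.07 and 0.37 TPM in controls and at 1.44 and 2.6 TPM in the knockdown (log2 fold change 1.52, adjusted p = 0.0811). The 6 endothelial markers summed to 0.18 to 0.90 TPM, with Lyve1 at 0. The 6 stellate cell markers summed to 1227 to 1374 TPM, nearly all Dcn, with Acta2 and Lrat at 0, and the 4 cholangiocyte markers summed to 31.9 to 32.8 TPM in controls and 39.3 to 40.5 TPM in the knockdown. Col1a1 rose from 0.18 and 0.17 TPM to 0.66 and 0.88 TPM, and Epcam from 11.14 and 9.3 TPM to 20.6 and 20.58 TPM. The other cholangiocyte markers did not pass, with log2 fold changes of 0.80 for Krt7, 1.75 for Krt19 and -0.37 for Sox9. Whether such cells were present, and what part they had in the results, was not tested. In bulk RNA, fewer cells of a type and less RNA per cell cannot be told apart.

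Of the 8 regulators, Insig1 fell in the Setdb1 knockdown cells, and the other 7 did not pass the test in either direction. Across the 12821 genes tested, 764 (5.96%) passed at an adjusted p of 0.05, with 538 (4.2%) higher and 226 (1.76%) lower in the knockdown. Srebf1, Scap, Insig2 and Nr1h3 overlap genes annotated on the opposite strand (Rai1, 5830462I19Rik, Gm37174 and Gm23390). On the same strand, Mir33 and Gm49502 overlap Srebf2, Mir6921 and Mir6922 overlap Srebf1, and Gm13783 overlaps Nr1h3. The library kit keeps the strand, but whether counting used it was not stated, so reads of opposite-strand partners may not have been told apart. Counts of Srebf1, Srebf2, Insig2 and Nr1h3 were whole in every library, and those of Scap were fractional in 1. The members' share of 12.5% rests on Insig1 alone. The 7 other members had log2 fold changes from -0.26 to 0.47 and adjusted p from 0.281 to 0.725, and in this edgeR fit none of them had an unadjusted p under 0.05. With limma on log2(TPM + 1) and log2(TPM + 0.1), Srebf2 had an unadjusted p of 0.0316 and 0.0335 and did not pass (adjusted p = 0.211 and 0.215). The median log2 fold change of the 8 was -0.13, against -0.01 over all genes tested. In CPM, both knockdown libraries lay on the same side of both control libraries for 4 members (50%: Srebf2, Insig1, Insig2 and Nr1h3). This was close to the 51.6% of all tested genes for which it held. Which members are apart depends on the scale: by TPM, Srebf1 and Scap were also apart, and Insig2 overlapped. TPM ran slightly lower in the knockdown in general. Over 12801 genes the median log2 ratio of the group means was -0.06 in TPM and -0.01 in CPM. The share of all tested genes that are apart by TPM was not counted.

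**Figure D1:**
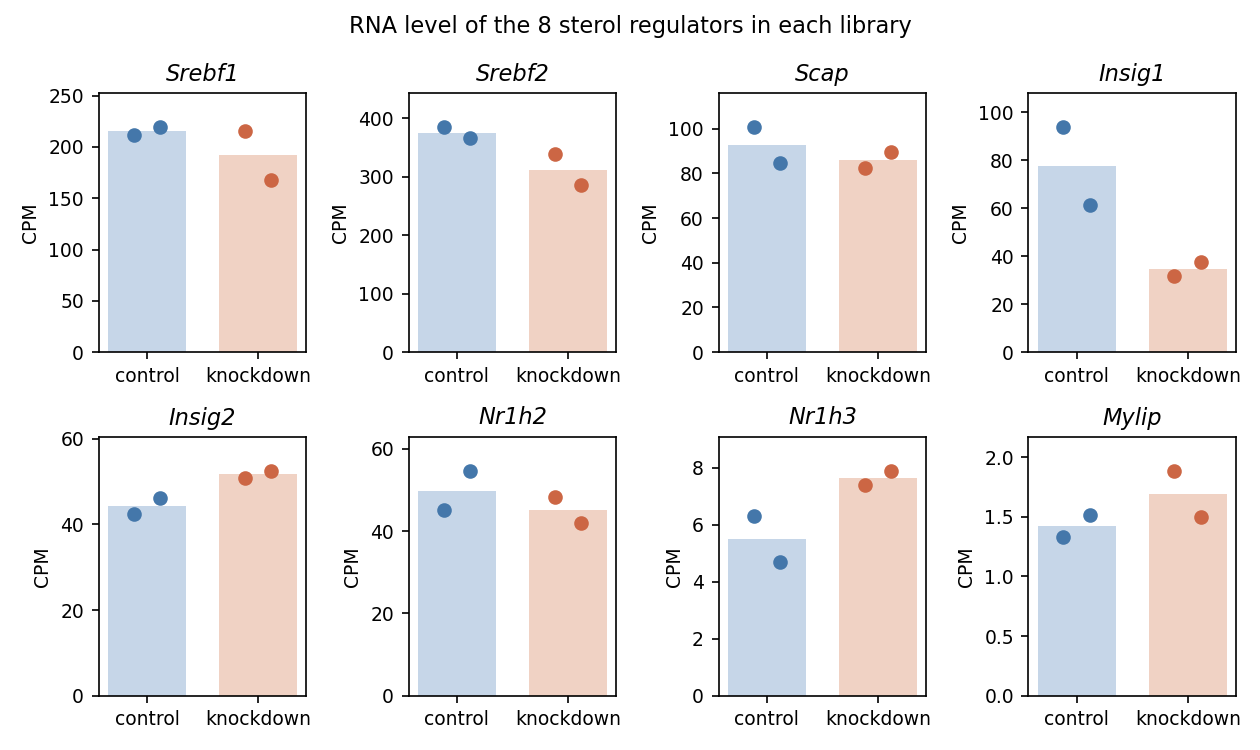
RNA level of each of the 8 regulators in CPM (linear axis from 0), with a point for each library and a bar for the mean of the 2 control (blue) or 2 knockdown (orange) libraries. Insig1 is below 38 CPM in both knockdown libraries and above 61 CPM in both controls, and Srebf1, Scap, Nr1h2 and Mylip overlap between the groups.

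**Figure D2:**
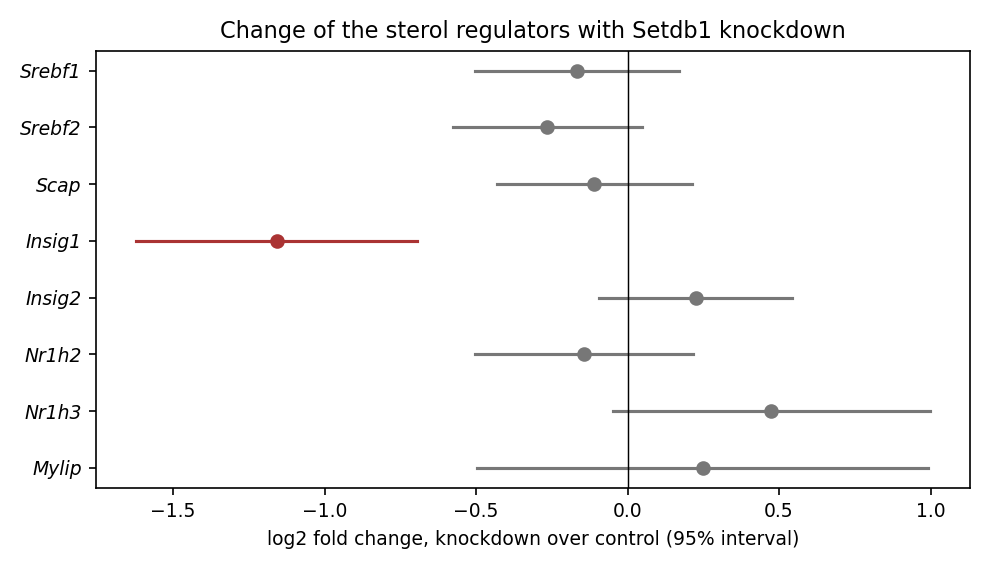
Log2 fold change of each regulator, knockdown over control, with its 95% interval from edgeR's quasi-likelihood fit. Insig1 (red) is the member that passed the test, and the intervals of the 7 others (grey) include 0.

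Insig1, which retains the SCAP and SREBP complex in the endoplasmic reticulum, was at 93.7 and 61.2 CPM in the control libraries and at 31.7 and 37.7 CPM in the knockdown libraries. The groups did not overlap, and the lower control library was still well above the higher knockdown library. Insig1 fell to 44.8% of control (95% interval 32.5% to 61.8%), a log2 fold change of -1.16 (SE 0.21, adjusted p = 0.0116 by edgeR's quasi-likelihood test), and its p ranked 302 among all genes tested. Per transcript length it was 49.7 and 33.2 TPM in controls and 16.1 and 19.0 TPM in the knockdown. The 2 controls differed from each other more than the 2 knockdown libraries did: the SD was 23.0 CPM around a control mean of 77.5 CPM and 4.22 CPM around a knockdown mean of 34.7 CPM. Without control library 1, the higher of the pair, the log2 fold change was -0.82, and without control library 2 it was -1.43. Insig1 lay on the plus strand of chromosome 5 (GRCm38, 28071363 to 28078662), with 2 annotated transcripts. The authors' mean transcript length for Insig1 was 2628 and 2652 bases in controls and 2679 and 2682 bases in the knockdown. Taken as a mixture of both transcripts, this puts the retained-intron transcript Insig1-202 at 3.58% and 2.32% of Insig1 transcripts in controls and at 0.92% and 0.76% in the knockdown, so that the coding Insig1-201 made up nearly all of the RNA in every library.

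Insig2, the paralogue with the same retention role, did not fall with Insig1. It was at 42.4 and 46.2 CPM in controls and at 51.0 and 52.6 CPM in the knockdown (log2 fold change 0.23, 95% interval -0.09 to 0.54, adjusted p = 0.401). The knockdown libraries lay above both controls, but the difference did not pass the test. On the per-length scale the direction was the opposite: Insig2 stood at 52.8 and 60.7 TPM in controls and at 44.7 and 53.2 TPM in the knockdown, with overlapping groups. The log2 ratio of the group means was 0.23 in CPM and -0.21 in TPM, and 10.9% of 12801 genes had opposite signs on these 2 scales. The scales are linked by the authors' mean transcript length of Insig2, which differed, at 1265 and 1236 bases in controls and 1658 and 1462 bases in the knockdown, 24.7% longer on average. Among 10740 tested genes with at least 2 transcripts, 34.3% had knockdown lengths on one side of both controls, and 4.01% had a relative length difference larger than that of Insig2.

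Insig2 lies on the minus strand of chromosome 1 (GRCm38, 121304353 to 121332589) and has 14 annotated transcripts, of which Insig2-201 (2697 bases) and Insig2-202 (1292 bases) are the longest. Insig2-202 starts at 121332589, below the promoter window with 3 CCAAT boxes, and ends in an exon of 426 bases, whereas Insig2-201 starts at 121328024, below the window that held none of the motifs, and ends in an exon of 1595 bases. As no other annotated transcript exceeds 1292 bases, the mean length requires at least 26.1% and 12.1% Insig2-201 in the 2 knockdown libraries, while the control lengths require none. These lengths are estimates of the authors' quantification, without an error of their own and with 2 libraries a group, and no test was made of them. Reads over either end of the gene were not analysed here.

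**Figure D3:**
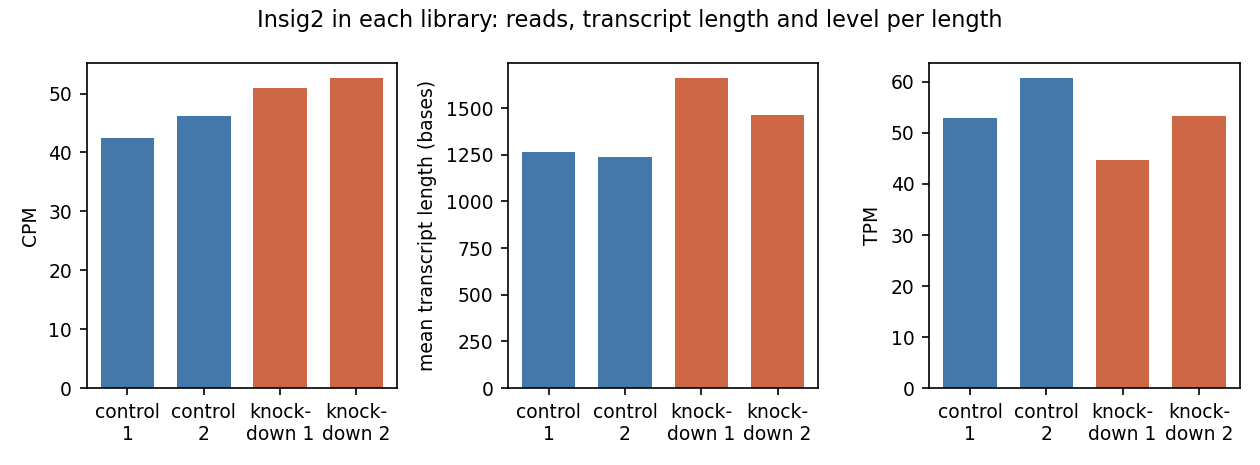
Insig2 in each of the 4 libraries as CPM (left), the authors' mean transcript length in bases (middle) and TPM (right), all on linear axes from 0, with controls in blue and knockdown libraries in orange. Counts and length are higher in both knockdown libraries, and the TPM of the groups overlap.

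Of the Insig transcripts, Insig1 made up 48.5% and 35.4% in the control libraries and 26.5% and 26.3% in the knockdown libraries, by TPM. The groups did not overlap, and the mean share was lower by 15.5 percentage points, a value with no test, since 2 libraries against 2 cannot give an exact permutation p under 0.333. By counts the share went from 68.9% and 57.0% to 38.4% and 41.8%. Insig1 and Insig2 together summed to 102.5 and 93.8 TPM in controls and to 60.8 and 72.2 TPM in the knockdown. Relative to Scap, whose product they bind, the summed Insig level was 2.72 and 2.89 in controls and 2.18 and 2.39 in the knockdown libraries.

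Scap (chromosome 9, 110333288 to 110384950, plus strand) did not pass the test. It was at 100.7 and 84.6 CPM in controls and at 82.4 and 89.4 CPM in the knockdown (log2 fold change -0.11, 95% interval -0.43 to 0.21, adjusted p = 0.719). Knockdown library 2 lay between the 2 controls in CPM, and without control library 1 the log2 fold change was 0.02. Per transcript length Scap was at 37.63 and 32.42 TPM in controls and at 27.89 and 30.16 TPM in the knockdown. On that scale the groups did not overlap and the log2 ratio of the group means was -0.27. Scap did not pass with limma on log2 TPM either. The mean transcript length of Scap was 6.7% longer in the knockdown, with groups apart, but 22.6% of genes had a larger relative difference.

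Both SREBP genes were among the more abundant transcripts of the cells, and neither passed the test. Srebf2 lies on the plus strand of chromosome 15 (82147181 to 82205379) and Srebf1 on the minus strand of chromosome 11 (60199089 to 60222581). Srebf2, whose product chiefly drives cholesterol synthesis, was at 384.8 and 365.6 CPM in controls and at 338.9 and 285.6 CPM in the knockdown. Both knockdown libraries lay below both controls, with a log2 fold change of -0.26 (SE 0.14, 95% interval -0.58 to 0.05, adjusted p = 0.312). It was -0.14 without knockdown library 2 and -0.40 without knockdown library 1. Srebf1, whose product chiefly drives fatty acid synthesis, was at 211.4 and 219.2 CPM in controls and at 215.3 and 168.2 CPM in the knockdown. Knockdown library 1 lay between the controls, so the groups overlapped in CPM, and the log2 fold change was -0.17 (SE 0.15, 95% interval -0.50 to 0.17, adjusted p = 0.574). By TPM, Srebf1 was at 84.05 and 86.14 in controls and at 82.96 and 63.05 in the knockdown. On that scale both knockdown libraries lay below both controls, knockdown library 1 narrowly. The median log2 ratio over all genes compared was itself -0.06 in TPM. Without knockdown library 2 the log2 fold change of Srebf1 was 0.00. Srebf1 made up 41.1% and 42.3% of the summed Srebf TPM in controls and 44.9% and 42.2% in the knockdown, with overlapping groups. The gene-level values do not separate the SREBP-1a and SREBP-1c forms of Srebf1, and RNA does not report the cleavage of either precursor.

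Among the receptors, LXRβ was the prevailing form by RNA and LXRα was scarce. Nr1h2 lies on chromosome 7 (44549616 to 44553951) and Nr1h3 on chromosome 2 (91184061 to 91202834), both on the minus strand. Nr1h2 was at 45.0 and 54.6 CPM in controls and at 48.4 and 41.9 CPM in the knockdown, with overlapping groups (log2 fold change -0.14, 95% interval -0.50 to 0.22, adjusted p = 0.665). Without control library 2 its log2 fold change was 0.00. Nr1h3 was at 6.31 and 4.69 CPM in controls and at 7.40 and 7.89 CPM in the knockdown. Both knockdown libraries lay above both controls, but the log2 fold change of 0.47 (SE 0.23, 95% interval -0.05 to 0.998) did not pass the test (adjusted p = 0.281). It was 0.70 without control library 1 and 0.27 without control library 2. Nr1h3 made up 12.8% and 8.97% of the summed LXR TPM in controls and 13.4% and 16.1% in the knockdown, and that sum was 40.7 and 48.2 TPM against 44.7 and 39.9 TPM.

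Mylip (chromosome 13, 45389742 to 45412022, plus strand), the LXR target that encodes IDOL, was close to the lower limit of what was tested, with 26 and 30 counts in controls and 37 and 29 counts in the knockdown. In CPM this was 1.33 and 1.51 against 1.89 and 1.496, and the groups overlapped. The log2 fold change was 0.25 with a 95% interval from -0.50 to 0.99 (adjusted p = 0.725). Vldlr, the VLDL receptor and a substrate of IDOL, named after its value was seen, was at 14.7 and 18.8 CPM in controls and at 26.5 and 14.1 CPM in the knockdown. The groups overlapped (log2 fold change 0.28, adjusted p = 0.619).

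By level per transcript length, the control cells ordered the members as Srebf2 (119.0 ± 2.2 TPM, SD, n = 2), Srebf1 (85.1 ± 1.5), Insig2 (56.7 ± 5.5), Insig1 (41.4 ± 11.7), Nr1h2 (39.6 ± 5.9), Scap (35.0 ± 3.7), Nr1h3 (4.76 ± 0.62) and Mylip (0.65 ± 0.07). Neighbours overlapped in the controls for Insig1 and Nr1h2 and for Nr1h2 and Scap, and the other neighbours did not overlap. Srebf2 was above 90.2% of the tested genes in controls, Nr1h3 above 27.4% and Mylip above 7.64%. In the knockdown, Insig1 moved from the fourth to the sixth place, at 17.5 ± 2.0 TPM (SD, n = 2), below Nr1h2 at 36.1 ± 3.7 and Scap at 29.0 ± 1.6, and the other members kept their order.

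The genes around the regulators were followed in 8 lists of 132 genes, chosen with earlier results of these data known. Of these genes, 118 were tested and 25 (21.2%) passed, 5 higher and 20 lower, against 5.96% of all tested genes. The count fell to 12 or 13 with limma on log2 TPM, depending on the pseudocount. The lists that serve the regulators showed little that passed. None of 19 genes of SREBP processing and degradation passed with edgeR, with the group as the sole term, or with DESeq2. In edgeR, 2 had an unadjusted p under 0.05, as 2731 of all 12821 tested genes did. Its most abundant members by TPM were Vcp, the ATPase that extracts proteins from the membrane, with a log2 fold change of 0.18 (adjusted p = 0.545), and Sar1a, a COPII coat GTPase, with 0.01 (adjusted p = 0.975). Vcp counts were fractional in all 4 libraries, where reads were shared with other genes. Of 19 SREBP cofactors and kinases, 1 (5.26%) fell, a share near the 5.96% of all tested genes. Prkaa1, a catalytic subunit of AMP-activated kinase, which phosphorylates SREBPs, was at 125.2 and 114.9 CPM in controls and at 75.1 and 83.6 CPM in the knockdown (log2 fold change -0.60, SE 0.14, adjusted p = 0.0343). Prkaa2, the other catalytic subunit, named after its value was seen, was at 12.3 and 12.6 CPM in controls and at 16.6 and 21.6 CPM in the knockdown and did not pass (log2 fold change 0.62, adjusted p = 0.102). Without knockdown library 1 the adjusted p of Prkaa1 was 0.0992, and with limma on log2(TPM + 1) and log2(TPM + 0.1) it was 0.0723 and 0.0709, and none of the 19 passed in these fits. Without control library 2 or without knockdown library 2, 2 of the 19 passed.

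Of 20 cholesterol synthesis genes, the known programme of SREBP-2, 10 (50%) fell and none rose. Of all tested genes, 1.76% fell and 4.2% rose. The median log2 fold change of the list was -0.60. Fdps, which makes farnesyl diphosphate, had a log2 fold change of -1.31 (SE 0.17, adjusted p = 0.00272), and it was the single gene of the list with a lower value than Insig1. Acat2 (-1.04, adjusted p = 0.00513), Mvd (-1.04, adjusted p = 0.0152) and Lss, the lanosterol synthase (-0.96, adjusted p = 0.00698), followed. Acat2 counts were fractional in all 4 libraries. Of the 20 genes, 15 were higher in control library 1 than in control library 2, with a median log2 ratio of 0.14. Over all tested genes these values were 49.0% and -0.01, and Insig1 had a log2 ratio of 0.62. The lean was not particular to this list. It held for 15 of the 19 genes of SREBP processing and degradation, with a median of 0.16. Against the control mean, the median of the cholesterol synthesis list was -0.58 in knockdown library 1 and -0.59 in knockdown library 2.

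Of 15 tested lipogenic genes, the known programme of SREBP-1, 6 fell and 1 rose (46.7%, against 5.96% of all tested genes). Their median log2 fold change was -0.47. Lpin1, a phosphatidate phosphatase, fell by 1.17 on the log2 scale (adjusted p = 0.00888), the elongase gene Elovl6 fell by 0.77 (adjusted p = 0.0107), the desaturase gene Fads2 fell by 0.83 (adjusted p = 0.0182) and Acly, which makes cytosolic acetyl-CoA, fell by 0.61 (adjusted p = 0.0289). Acacb, the mitochondrial form of acetyl-CoA carboxylase, rose from 1.80 and 1.66 CPM to 7.45 and 5.88 CPM (log2 fold change 1.94, SE 0.27, adjusted p = 0.00383). Per transcript length Acacb was low and rose less, from 0.85 and 0.57 TPM to 1.69 and 1.22 TPM. Its log2 fold change was 0.95 with limma on log2(TPM + 0.1). The count of 7 fell to 4 without knockdown library 2, where the adjusted p of Acly was 0.124, and to 2 or 3 with limma on log2 TPM, where Acly, Acacb and Lpin1 did not pass. Elovl6 did not pass with limma on log2(TPM + 1) (adjusted p = 0.0539).

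**Figure D4:**
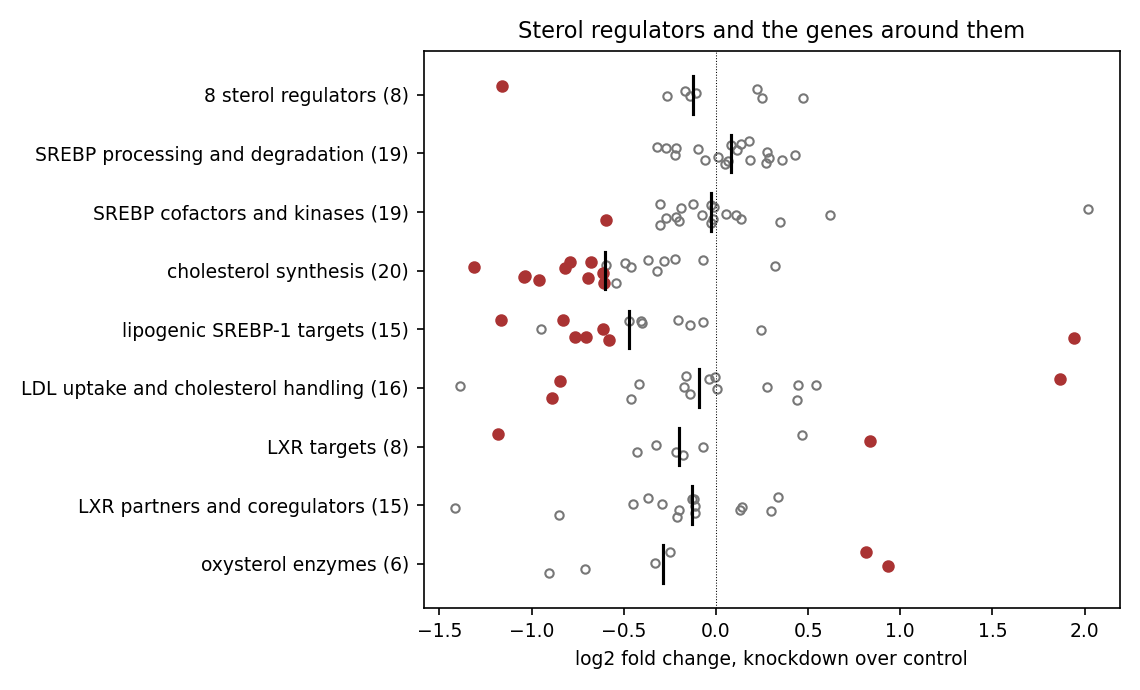
Log2 fold change, knockdown over control, of the tested genes among the 8 regulators and in each of 8 lists, with the number tested in brackets. Red points passed at an adjusted p of 0.05, grey circles did not, and the black bar is the list's median, which is -0.60 for cholesterol synthesis and -0.13 for the 8 regulators. Points are spread vertically so that they do not cover each other.

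Of 16 tested genes of LDL uptake and cholesterol handling, 2 fell and 1 rose (18.75%, against 5.96% of all tested genes). Their median log2 fold change was -0.09. Lrp8, a lipoprotein receptor and IDOL substrate, was at 47.8 and 53.5 CPM in controls and at 28.1 and 26.5 CPM in the knockdown (log2 fold change -0.89, SE 0.15, adjusted p = 0.00905). Soat1, which esterifies cholesterol, rose from 0.82 and 0.86 CPM to 2.60 and 3.56 CPM (log2 fold change 1.87, SE 0.35, adjusted p = 0.0133). The count was 5 without control library 1 and 5 without control library 2, and with limma on log2 TPM it was 1, with Lrp8 and Soat1 not passing.

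Of 8 tested LXR targets, 1 fell and 1 rose (25%, against 5.96% of all tested genes). Their median log2 fold change was -0.20. Apoe, which encodes an apolipoprotein, was at 2088 and 2239 CPM in controls and at 1245 and 664.8 CPM in the knockdown (log2 fold change -1.18, SE 0.25, adjusted p = 0.0259). Lpcat3, which remodels membrane phospholipids, was at 192.4 and 169.4 CPM in controls and at 339.5 and 306.5 CPM in the knockdown (log2 fold change 0.84, SE 0.14, adjusted p = 0.00779), with fractional counts in all 4 libraries. Abca1, the cholesterol exporter, named after its value was seen, was at 74.6 and 69.3 CPM against 58.6 and 48.4 CPM and did not pass (log2 fold change -0.43, adjusted p = 0.136). Abcg5, Abcg8, Apoc1, Pltp, Smpdl3a and Cyp7a1 were too low to be tested. With limma on log2 TPM, Apoe did not pass and 1 gene of the list did, and the count was 3 without control library 2 or without knockdown library 1.

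None of 15 tested LXR partners and coregulators passed with edgeR, with the group as the sole term, or with DESeq2, and 3 had an unadjusted p under 0.05 in edgeR, against 2731 of all 12821 tested genes. The count was 3 without control library 1 and 3 without knockdown library 1. Hdac3, a histone deacetylase and one of the members most abundant by TPM, had a log2 fold change of -0.13 (adjusted p = 0.621). Of 6 tested enzymes that make or clear oxysterols, the ligands of LXR, 2 (33.3%) rose, against 4.2% of all tested genes. They were Cyp7b1, from 7.08 and 7.52 CPM to 11.8 and 13.9 CPM (log2 fold change 0.82, adjusted p = 0.0463), and Cyp11a1, from 6.77 and 5.25 CPM to 10.4 and 12.5 CPM (0.93, adjusted p = 0.0423). Neither passed with limma on log2 TPM or without knockdown library 2 (adjusted p = 0.253 and 0.172). Without control library 2, Cyp11a1 did not pass and 1 enzyme did, and without control library 1 there were 3. With the replicate number as a block, Cyp7b1 did not pass (adjusted p = 0.0595).

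Of the 118 tested list genes, those whose centred log2 CPM profile over the 4 libraries lay nearest to that of Insig1 were Gramd1c, a sterol transfer protein (Euclidean distance 0.36), Lss (0.41) and Mvd (0.49). Gramd1c was near 1 CPM, at 1.44 and 0.61 CPM in controls and 0.36 and 0.41 CPM in the knockdown, and did not pass the test (adjusted p = 0.190). Among all tested genes, 22 lay nearer to Insig1 than Gramd1c did. With 4 libraries in 2 groups, such a likeness rests mostly on the difference between the groups.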

How the data were processed

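RNA was sequenced from 2 control and 2 Setdb1-knockdown Hepa1-6 libraries. Per the submitters' processing notes, FastQC, STAR, RSEM and DESeq2 were used with GRCm38 (mm10), while their versions and the strand option were not stated. The deposited files hold, per the file headers, RSEM's expected counts, TPM, FPKM and mean transcript lengths for each gene, and FPKM was not used. Expected counts were rounded and tested with edgeR 4.0.16 (R 4.3.3; TMM, filterByExpr, quasi-likelihood, group as the sole term, 2 residual degrees of freedom), with Benjamini-Hochberg adjustment over all 12821 genes tested. CPM uses TMM-scaled totals. Loci named by position, 0.355% to 0.417% of counts, entered library sizes only. Each library held between 19513567 and 19615440 counts. Alternatives were DESeq2 1.42.0, limma 3.58.1 on log2(TPM + 1 or 0.1), other filters and scalings, each library left out, and the replicate number as a block. Annotation is GENCODE M21 (GRCm38), and 54809 of 54838 gene IDs matched.

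The members and lists were chosen with earlier results of these data known. Named genes were Setdb1, the members, up to 4 genes that passed with the smallest p per list and direction (or the 2 with the highest mean TPM where none passed), and the 3 list genes nearest to Insig1 in profile, and some genes that this rule names are not reported here. Same-numbered libraries did not deviate together.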

Additional observations from a re-analysis of the deposited data

How the results depend on the processing

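Insig1 was lower in the knockdown under all 14 alternatives, with log2 fold changes from -1.43 to -0.82 and adjusted p from 3.81e-08 to 0.247, and it missed the threshold in one of them, the fit with no filter on low counts. In that fit no gene passed (0 of the members, 0 of the list genes, 0 in all), although 3379 genes, 1 member and 53 list genes had an unadjusted p under 0.05, and DESeq2 called 896 genes on the filtered table. Genes that passed numbered 334 with limma on log2(TPM + 1) and 327 on log2(TPM + 0.1), of which 12 and 13 were list genes. Leaving out each library gave 740 to 1677 genes, 1 member in each case and 20 to 31 list genes. The replicate number as a block gave 862 genes and 24 list genes, with Insig1 at -1.13 (adjusted p = 0.000724), but deviations of same-numbered libraries correlated at -0.18, so the numbers were not taken as pairs. A crossed pairing, added after the data were seen, gave 2339 genes and 49 list genes, of which 2 were of SREBP processing and degradation and 4 were LXR partners. In that edgeR fit, Srebf2 and Nr1h3 had unadjusted p of 0.0430 and 0.0332 and did not pass. Directions turned, in each case without passing, for Srebf1 without knockdown library 2, Scap without control library 1, Nr1h2 without control library 2 and Sar1a without control library 2. Leaving out each library gave -0.36 to 0.0027 for Srebf1, -0.23 to 0.019 for Scap, -0.28 to 0.0021 for Nr1h2 and -0.056 to 0.077 for Sar1a. With limma on log2(TPM + 1) and log2(TPM + 0.1), Insig2 was at -0.210 and -0.214 and Sar1a at -0.0297 and -0.0299. For Insig2, CPM and TPM are linked by its mean transcript length, which was longer in the knockdown, as given above. Why that length differed, and why the other directions turned, was not tested. Mylip had 26 to 37 counts a library, and its 95% interval spans -0.50 to 0.99.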
